A study of Mus musculus with 2 samples.

Results

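Activator protein 1 (AP-1) is a dimeric transcription factor built from members of the Fos and Jun families, and its make-up was described here for 10 genes in cells of mouse parathyroid glands: Fos, Fosb, Fosl1, Fosl2, Jun, Junb, Jund, Atf3, Batf and Maff. They were taken by symbol from the 32287 gene rows that both single-cell libraries share, and all 10 were present and passed the filter on low counts. The glands formed in Gcm2-/- mice on a BDF1B6 background that had been complemented with mouse embryonic stem cells (ESCs) carrying Pth-tdTomato. The host lacks the gene for Gcm2, the factor needed to form parathyroid glands. For replicate 1, glands were pooled from 3 animals, between 9 and 12 weeks old, in whose blood 50 to 70% of cells came from the ESCs. For replicate 2 there were 5 animals, between 6 and 13 weeks old, and the blood share was 60 to 70%. Males and females were mixed, there was no other group, and cells were released by papain for 15 minutes, collagenase for 15 minutes and trypsin for 1 minute at 37 °C. Cells other than parathyroid cells may come from host or ESCs, which the labels do not separate, and the spread between single mice was not measured.

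AP-1 proteins share a basic leucine zipper, through which they pair and bind DNA. Fos proteins pair with Jun proteins, while Jun proteins can also pair with each other. Fos, Fosb, Jun, Junb and Atf3 are immediate early genes, whose transcription rises quickly after growth factors, calcium signals or stress, including the enzymatic release of cells from tissue. Jund is known for steadier transcription. Batf pairs with Jun proteins and is known for its work in lymphocytes and dendritic cells, and Maff is a small Maf protein with no activation domain of its own.

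Promoters of 4 members are shown because the results turn on them: Fos is the member with the highest mean level in parathyroid cells, and Junb, Fosl2 and Maff were lower there than in each other cell class tested. Each line is the 150 bases before a RefSeq start in GRCm38.p6, written 5′ to 3′ along the gene. The windows lie at chr12:85473740-85473889, plus strand for Fos; chr8:84978749-84978898, minus strand for Junb; chr5:32136322-32136471, plus strand for Fosl2; and chr15:79347370-79347519, plus strand for the second of 3 Maff starts. Capitals mark a CRE core (ACGTCA), a full CRE (TGACGTCA, which holds the core on both strands) or a TATA box (TATAAA).
Fos: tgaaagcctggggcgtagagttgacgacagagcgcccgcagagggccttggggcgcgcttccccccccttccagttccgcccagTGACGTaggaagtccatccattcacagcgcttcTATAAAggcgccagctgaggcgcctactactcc
Junb: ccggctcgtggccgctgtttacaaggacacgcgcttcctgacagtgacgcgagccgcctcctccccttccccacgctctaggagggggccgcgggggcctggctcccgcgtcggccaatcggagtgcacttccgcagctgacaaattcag
Fosl2: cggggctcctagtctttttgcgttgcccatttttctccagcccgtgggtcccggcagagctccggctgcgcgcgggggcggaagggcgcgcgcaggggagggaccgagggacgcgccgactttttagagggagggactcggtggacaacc
Maff: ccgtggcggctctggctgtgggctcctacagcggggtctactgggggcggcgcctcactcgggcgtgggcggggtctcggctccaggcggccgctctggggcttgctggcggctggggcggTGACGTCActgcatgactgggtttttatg
The Fos window held a CRE core on the reverse strand at -66 to -61 and a TATA box at -33 to -28 from the start. The second Maff window held the full CRE at -29 to -22. No CRE or CRE core was found for Junb or Fosl2 within these letters. For Junb a TATA box lay at 1 to 6 after the start, beyond the printed letters. Both strands were searched over 250 bases before to 50 after each start. The CRE core was in 7.51% of the 32851 RefSeq windows, the full CRE in 1.79% and the TATA box in 13.6%. A CRE core was also found for Atf3 at -8 to -3 and for Batf at -98 to -93. The TRE (TGANTCA), in 7.81% of windows, and the CArG box, in 1.63%, matched no member's window. Sites further from the start than these windows were not searched, so a member may have such a site there. The Jund window, chr8:70697489-70697788, ended before the annotated start of the gene at 70698949. These are matches of letters, and no binding was measured. The table held no window for Fosl1.

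The libraries held 1406 and 3518 barcodes with 41517620 and 88283761 UMIs, and 1242 and 3312 cells passed the filters. Cells with at least 5% of their UMIs from Pth, the gene of parathyroid hormone, were called parathyroid: 662 in replicate 1 and 2236 in replicate 2. The calcium receptor gene Casr had a UMI in 97.6% and 97.4% of them, and Gcm2 in 95.9% and 96.5%; in fibroblast-like cells, which should lack both, the shares were 4.35% and 2.23% for Casr and 5.22% and 3.12% for Gcm2. Cells with under 1% Pth, 566 and 1054, were clustered and named by markers, and the 14 and 22 cells between the limits were left out. The classes tested, in replicates 1 and 2, were fibroblast-like (230 and 448 cells), endothelial-like of blood vessels (106 and 270), macrophage-like (55 and 132), dendritic-like (52 and 48) and T-cell-like (36 and 51). Median UMIs per cell were 37902 and 30580 in parathyroid cells, 21694 and 19702 in fibroblast-like cells and 10250 and 7589 in endothelial-like cells. Near the limit cells were few: 3 and 6 had 3 to 5% Pth, and 2 and 6 had 5 to 7%. Fos was at 750 and 922 CPM in the first band and 1433 and 190 in the second, here as CPM (the gene's UMIs scaled to a common total) of UMIs other than those of Pth. The libraries shared 3 barcode sequences.

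Levels below are CPM of all UMIs, Pth included, summed over a class in each library. A UMI stands for 1 molecule whatever the gene's length, so CPM can be set side by side between genes, apart from differences in capture. The 10 genes together made up 7069 and 6157 CPM in parathyroid cells in replicates 1 and 2. Fibroblast-like cells had 11830 and 13326 CPM and endothelial-like cells 12703 and 11138, above parathyroid cells in both libraries. Dendritic-like cells, with 5653 and 4396 CPM, lay below. T-cell-like cells, with 8019 and 6956 CPM, lay above the parathyroid value of the same library. Their replicate 2 value was still below the parathyroid value of replicate 1. Macrophage-like cells, with 6638 and 9037 CPM, lay below parathyroid cells in replicate 1 and above them in replicate 2. Pth, Chga, Chgb, the reporter and mitochondrial genes take up much of a parathyroid cell's UMIs, and with these left out of the total the parathyroid family level was 9141 CPM. The totals of the other classes were not reduced in this way, so 9141 CPM cannot be set beside their values above. The order of classes given here holds for CPM of all UMIs only.

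Parathyroid cells divided the family mainly among 3 genes of similar share. Fos held 27.6% ± 0.668 (SD, n = 2 libraries) of the family's UMIs, Jund 24.3% ± 0.690 and Jun 24.2% ± 2.80. Junb followed with 12.7% ± 0.0578, Fosb with 6.34% ± 1.67 and Atf3 with 3.93% ± 0.115, while Fosl1, Fosl2, Batf and Maff held under 1% each. Jund's share was 9.33% ± 0.605 in fibroblast-like cells and 16.0% ± 0.761 in dendritic-like cells, the lowest and highest of the other tested classes. Junb's share ran from 20.0% ± 0.728 in fibroblast-like cells to 51.1% ± 10.2 in T-cell-like cells. In neither library did a tested class overlap the parathyroid share of Jund or Junb. These shares were not tested beyond the gene tests below.

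**Figure D1:**
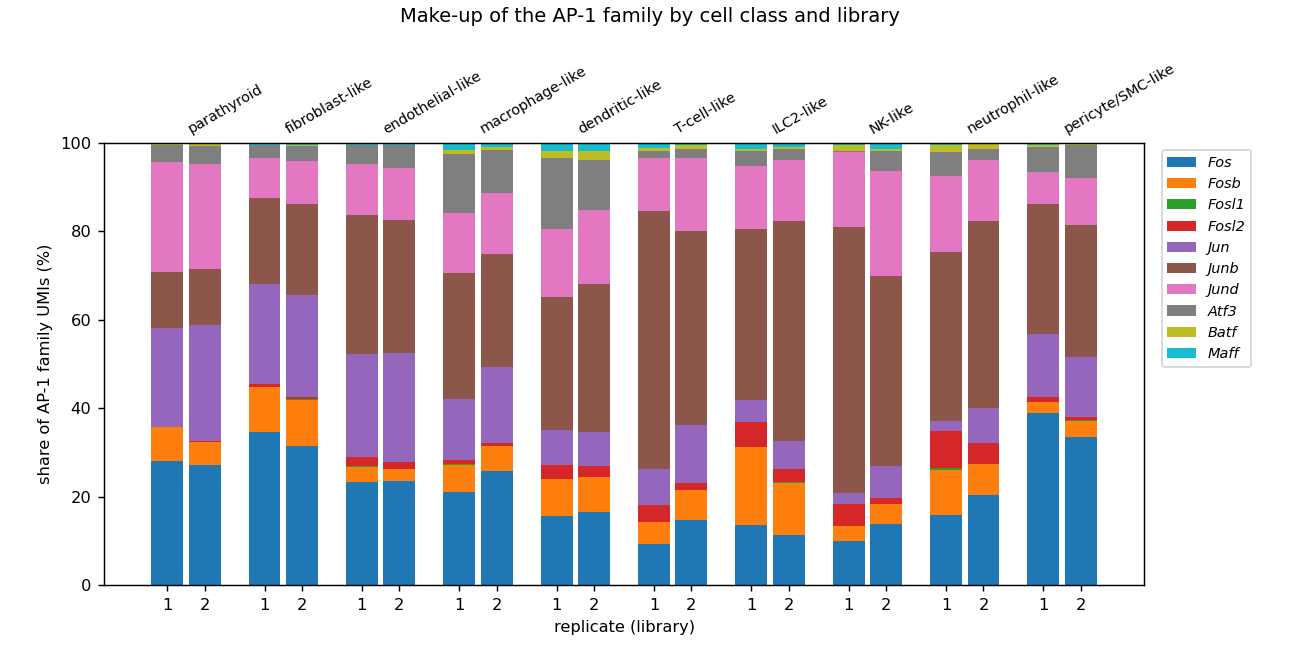
Stacked bars give each gene's share (%) of the UMIs of the 10 AP-1 genes, per cell class and library (1 and 2 on the horizontal axis). Of the 6 tested classes, the parathyroid class has the largest Jund segment and the smallest Junb segment, at 24.3% and 12.7% on average. The last 4 classes hold few cells.

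Sums of the 6 classes in both libraries were compared with edgeR's quasi-likelihood test, with library as a block, over 13305 genes; adjusted p-values are Benjamini-Hochberg over all of them. Against the mean of the other 5 classes, 3 members were called higher in parathyroid cells (Jun, Jund and Batf), 4 lower (Junb, Fosl2, Maff and Atf3), and 3 were not called (Fos, Fosb and Fosl1). Of all genes that had not been used to form or name classes, 38.3% were called higher and 19.8% lower, 58.1% in all, so being called does not set a member apart. The contrast averages log values, so each class counts the same. The median gene stood at 0.19 on the log2 scale, and members' changes are read against that. With DESeq2's test, DESeq2's size factors or plain totals as the scale, Jund alone was called higher, and the 4 lower members were called in each. The median gene then stood at -0.02, 0.06 and 0.07, and the shares of all genes called were not counted. With all other cells summed to 1 class, 2 members were called higher and 6 lower, Fos and Fosb now among the lower, where 34.9% of eligible genes were called higher and 32.5% lower. With no filter on low counts, where the median of the 24994 genes was 0.60, 4 members were called higher, Fos among them, and 4 lower, where the shares were 27% and 9.02%.

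Among the Fos genes, Fos showed 2 sides. Its parathyroid level was 1987 and 1673 CPM, against 4096 and 4181 in fibroblast-like, 2957 and 2621 in endothelial-like, 1395 and 2329 in macrophage-like, 886 and 730 in dendritic-like and 743 and 1019 in T-cell-like cells. Parathyroid cells thus lay between stromal cells and 2 of the immune classes, overlapping macrophage-like cells. Fos was lower than in fibroblast-like cells by a log2 fold change of -1.09 (SE 0.226, adjusted p = 0.00111), and higher than in T-cell-like cells (1.44, SE 0.232, adjusted p = 0.000281) and dendritic-like cells (1.16, SE 0.228, adjusted p = 0.000868). It was not called against endothelial-like (-0.35, adjusted p = 0.209; called lower with total counts as the scale, -0.61, adjusted p = 0.0327) or macrophage-like cells (-0.10, adjusted p = 0.732). Against the mean of classes Fos was not called (0.21, SE 0.171, adjusted p = 0.327), but with no filter on low counts it was called higher (0.35, adjusted p = 0.0253). When all other cells were summed, which weights the many fibroblast-like cells, it was called lower (-0.51, adjusted p = 0.00735), and without the dendritic-like class the value was -0.02.

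Fosl2 was the member with the largest difference. Fosl2 encodes Fra-2, a Fos protein without the strong activation domain of Fos. Parathyroid cells had 6.82 and 8.58 CPM. T-cell-like cells had 303 and 121, endothelial-like 256 and 162, dendritic-like 174 and 106, fibroblast-like 71.3 and 76.2 and macrophage-like 64.9 and 57.2 CPM. All values of these tested classes lay above both parathyroid values. The log2 fold changes ran from -4.43 (SE 0.343, adjusted p = 3.1e-07) against endothelial-like to -3.03 (SE 0.345, adjusted p = 9.3e-06) against macrophage-like cells, and all 5 were called.

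Fosb, which like Fos is an early-response gene, had 532 and 318 CPM in parathyroid cells, so the libraries differed more than for Fos. Fibroblast-like cells had 1211 and 1409 CPM, and Fosb was lower in parathyroid cells (-1.57, SE 0.262, adjusted p = 0.000211). The other 4 classes lay between 297 and 512 CPM in either library, overlapping the parathyroid values, and none of these 4 comparisons was called. Against the mean of classes Fosb was not called (-0.19, adjusted p = 0.477), and with all other cells summed it was called lower (-0.91, adjusted p = 0.0179). Fosl1, which encodes Fra-1, was near the lower end of detection with 4.40 and 6.06 CPM. It was lower than in endothelial-like cells, with 30.8 and 16.5 CPM (-1.84, SE 0.399, adjusted p = 0.00175), and not called against any other class.

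Among the Jun genes, Jund and Junb went opposite ways. Jund had 1756 and 1469 CPM in parathyroid cells. The other classes had 1468 and 1311 (endothelial-like), 1053 and 1301 (fibroblast-like), 901 and 1243 (macrophage-like), 974 and 1158 (T-cell-like) and 876 and 728 CPM (dendritic-like). Both parathyroid values were above all of these, by 1 CPM in the closest case. Jund was higher than in dendritic-like (0.99, SE 0.200, adjusted p = 0.00105) and T-cell-like cells (0.98, SE 0.201, adjusted p = 0.00169). It was also called against fibroblast-like (0.54, adjusted p = 0.0319) and macrophage-like cells (0.51, adjusted p = 0.0419). These 2 calls were lost with DESeq2's test (adjusted p = 0.150 and 0.136) and without the library block (adjusted p = 0.0601 and 0.0737). Leaving out replicate 1 gave 0.25 against fibroblast-like and 0.15 against macrophage-like cells, while leaving out replicate 2 gave 0.83 and 0.89. Jund was not called against endothelial-like cells (0.47, adjusted p = 0.0615).

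Junb, which is less active than Jun on many AP-1 sites, had 900 and 779 CPM in parathyroid cells. The next lowest class, dendritic-like, had 1703 and 1476 CPM, and the highest, T-cell-like, had 4673 and 3049. Fibroblast-like cells had 2304 and 2732, macrophage-like 1883 and 2313 and endothelial-like 4004 and 3361 CPM. No tested class overlapped the parathyroid values. The difference was -0.93 (SE 0.199, adjusted p = 0.00156) against dendritic-like and -1.88 (SE 0.203, adjusted p = 6.3e-06) against endothelial-like cells, with the other 3 between and all called.

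Jun itself, the family's founding member and a strong activator, had 1572 and 1614 CPM, with little difference between the libraries. Fibroblast-like cells, 2678 and 3087, and endothelial-like cells, 2958 and 2744, lay above. Macrophage-like cells had 924 and 1560, T-cell-like 659 and 905 and dendritic-like 447 and 337 CPM, all below. Jun was lower than in fibroblast-like (-0.77, SE 0.226, adjusted p = 0.0107) and endothelial-like cells (-0.59, SE 0.226, adjusted p = 0.0430), the second lost without the library block (adjusted p = 0.0798). It was higher than in dendritic-like (2.00, SE 0.237, adjusted p = 1.6e-05) and T-cell-like cells (1.42, SE 0.233, adjusted p = 0.000339), and not called against macrophage-like cells (0.29, adjusted p = 0.287). The call against the mean of classes (0.47, adjusted p = 0.0307) went with a mean of 1593 CPM against 1630 for the others. It did not hold without the dendritic-like class (0.09, adjusted p = 0.695) and had the other sign, uncalled, when all other cells were summed (-0.22, adjusted p = 0.0537).

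Of the remaining members, Atf3, a stress-response gene whose protein can repress, had 272 and 247 CPM in parathyroid cells. It reached 885 and 870 CPM in macrophage-like and 901 and 504 in dendritic-like cells, and was lower in parathyroid cells than in both (-1.84, SE 0.251, adjusted p = 4.5e-05; -1.45, SE 0.250, adjusted p = 0.000333). It was also lower than in endothelial-like cells, with 537 and 582 CPM (-0.86, adjusted p = 0.0103), and higher than in T-cell-like cells, with 123 and 141 (1.35, adjusted p = 0.00148). Against fibroblast-like cells, with 354 and 462, it was not called (-0.58, adjusted p = 0.0582), and DESeq2's test called it lower (-0.72, adjusted p = 0.0367).

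Batf had 27.1 and 31.7 CPM in parathyroid cells, between the immune and stromal classes. Fibroblast-like cells had 4.45 and 2.72 CPM and endothelial-like cells 7.05 and 3.77, and Batf was higher in parathyroid cells than in both (3.19, SE 0.258, adjusted p = 3.7e-07; 2.82, SE 0.331, adjusted p = 1.3e-05). Dendritic-like cells had 90.7 and 92.6 CPM and macrophage-like cells 58.6 and 64.8, and Batf was lower than in both (-1.65, adjusted p = 3.8e-05; -1.16, adjusted p = 0.000505). T-cell-like cells, with 53.2 and 55.0 CPM, were not called apart (-0.50, adjusted p = 0.162), while with total counts as the scale Batf was called lower (-0.88, adjusted p = 0.0235). So Batf's call as higher than the mean of logs stood beside a lower mean CPM, 29.4 against 43.3.

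Maff had 11.6 and 11.7 CPM in parathyroid cells, with no overlap with any tested class. The other tested classes lay between 37.4 CPM, in T-cell-like cells of replicate 2, and 111 CPM, in macrophage-like cells of replicate 1. Among the untested small classes, neutrophil-like cells had 20.2 and 10.7 CPM, so the second value was below the parathyroid values. All 5 comparisons were called, from -3.11 (SE 0.285, adjusted p = 1.4e-06) against macrophage-like to -1.76 (SE 0.296, adjusted p = 0.000268) against endothelial-like cells.

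**Figure D2:**
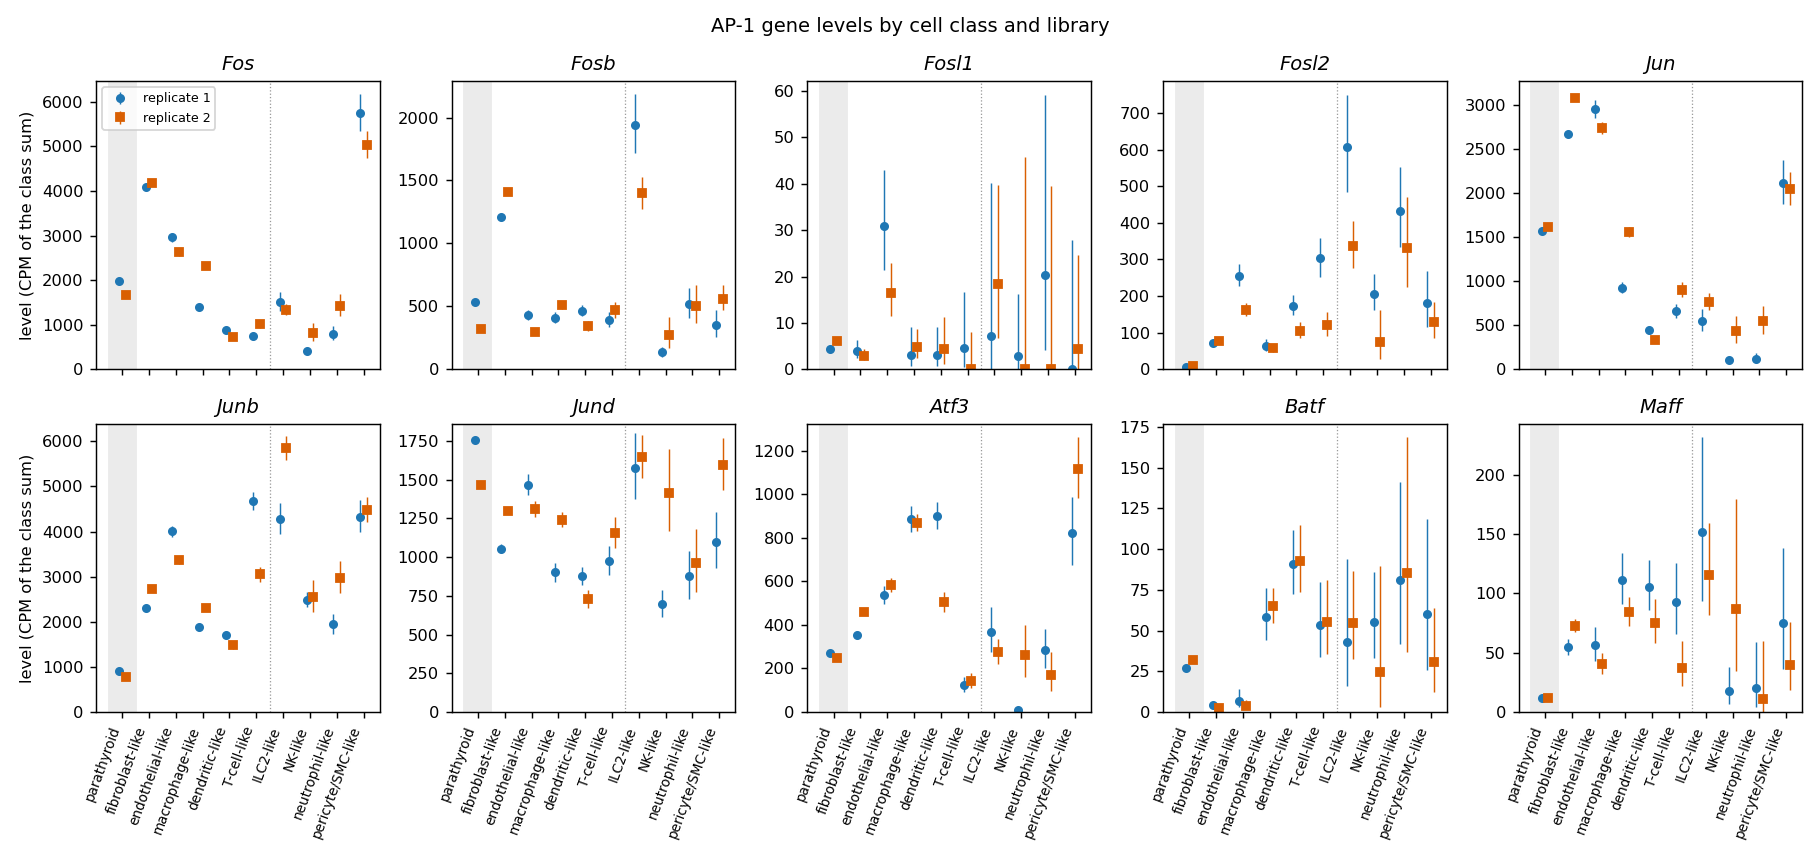
Each panel plots 1 gene's level (CPM of the class sum; each panel has its own axis from 0) in 10 cell classes; circles are replicate 1, squares replicate 2, bars 95% Poisson intervals, which cover counting error only. Parathyroid cells (shaded) lie lowest of the 6 tested classes, left of the dotted line, for Junb, Fosl2 and Maff, and highest for Jund.

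By class, the parathyroid column had 2 members higher and 6 lower than fibroblast-like cells (30% and 29.2% of all eligible genes), and 1 higher and 6 lower than endothelial-like cells (29.2% and 24.7%). It had 1 higher and 5 lower than macrophage-like cells (31.6% and 26.6%), 3 higher and 5 lower than dendritic-like cells (33.5% and 22.6%), and 4 higher and 3 lower than T-cell-like cells (29.2% and 16.4%). These 5 comparisons share the parathyroid sums. With no filter on low counts 4 more member tests were called higher: Fosb (0.63, adjusted p = 0.00852) and Jund (0.62, adjusted p = 0.00415) against endothelial-like, Jun against macrophage-like (0.49, adjusted p = 0.0220) and Fosl1 against fibroblast-like cells (0.90, adjusted p = 0.0484). Over all 15 pairs of classes, 87 of the 150 tests of a member were called; Jun was called in 12 pairs and Jund in 4. In the 10 pairs without parathyroid cells the share of eligible genes called was 12.8% for dendritic-like against macrophage-like cells, 23.1%, 26.4%, 34.9% and 43.2% for T-cell-like against dendritic-like, macrophage-like, endothelial-like and fibroblast-like cells, 38.1%, 40.5% and 41.9% for endothelial-like against macrophage-like, dendritic-like and fibroblast-like cells, and 47.6% and 49.6% for fibroblast-like against macrophage-like and dendritic-like cells.

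**Figure D3:**
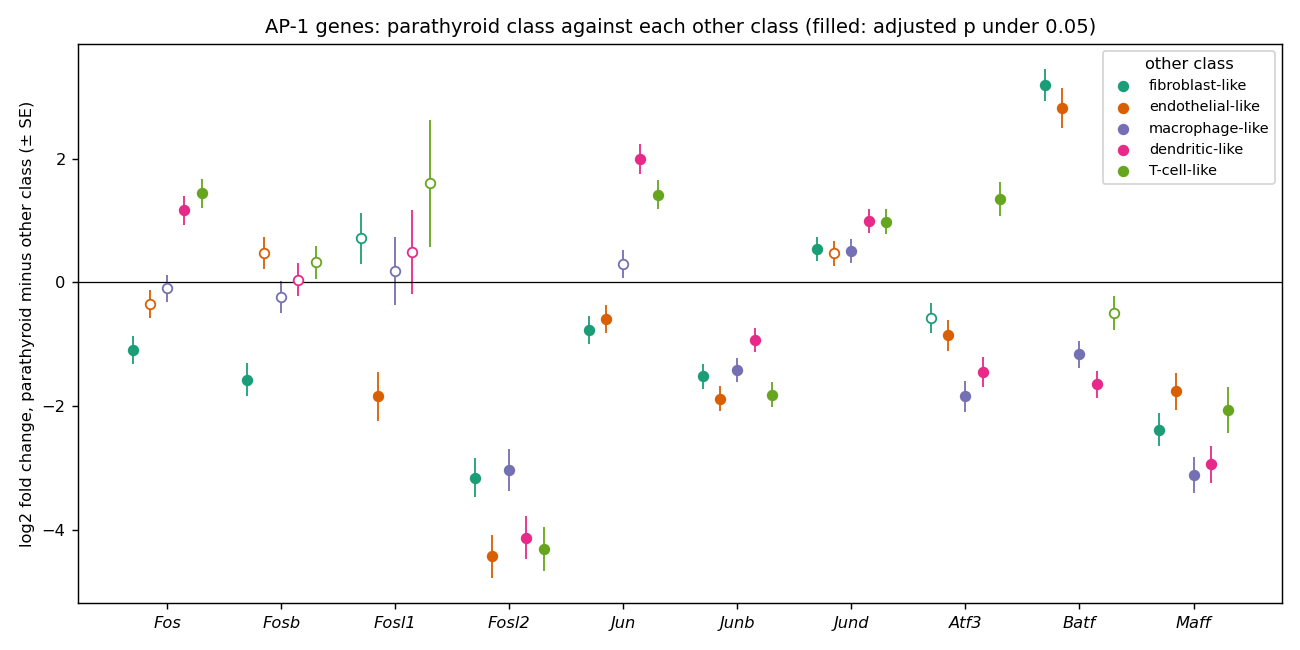
Points are log2 fold changes of parathyroid cells against each of 5 classes, with SE bars, from 1 edgeR fit; filled points have an adjusted p under 0.05. All 5 points are filled and below 0 for Junb, Fosl2 and Maff, while Fos and Jun have filled points on both sides.

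In the order of mean levels, neighbours often did not differ. The order is by CPM, while the steps were tested on edgeR's scaled values, where some uncalled steps had the reverse sign. The largest of these were from T-cell-like cells to parathyroid cells for Fosb (-0.33), to fibroblast-like cells for Maff (-0.32) and to dendritic-like cells for Fos (-0.28). For Fos, fibroblast-like cells stood first and differed from the endothelial-like cells next to them (0.74, SE 0.225, adjusted p = 0.0182). Endothelial-like, macrophage-like and parathyroid cells followed without a called step, and the step from parathyroid down to T-cell-like cells was called. For Jun, the called steps were from endothelial-like to parathyroid cells and from macrophage-like to T-cell-like cells (1.12, SE 0.233, adjusted p = 0.00290). For Junb only the last step, from dendritic-like to parathyroid cells, was called, and for Jund no step was called. For Atf3 only the step from parathyroid to T-cell-like cells was called, and for Maff only that from endothelial-like to parathyroid cells. For Batf the called step was from parathyroid to endothelial-like cells, and for Fosl1 that from endothelial-like to parathyroid cells. For Fosb it was from fibroblast-like to macrophage-like cells (1.33, SE 0.262, adjusted p = 0.00103). For Fosl2 the steps from dendritic-like to fibroblast-like cells (0.97, adjusted p = 0.0231) and from macrophage-like to parathyroid cells were called.

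Classes below 20 cells in a library are described without a test. ILC2-like cells (13 and 35) had Junb at 4275 and 5852 CPM and Fosb at 1939 and 1397, above the parathyroid values in both libraries. Pericyte-like or smooth-muscle-like cells (10 and 22) had Fos at 5752 and 5034 CPM, and neutrophil-like cells (21 and 16) had Fosl2 at 432 and 332 CPM. Jund was at 1579 and 1647 CPM in ILC2-like cells and 1099 and 1597 in pericyte-like or smooth-muscle-like cells. Both classes were below the parathyroid 1756 CPM in replicate 1 and above the parathyroid 1469 CPM in replicate 2. A cluster of 6 and 13 shallow cells carried parathyroid markers with low Pth and was left unnamed. Its Fos level was 529 and 3268 CPM.

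Within classes, the members varied by cluster. Endothelial-like cluster 1, led by Selp and Ackr1, genes known from venous endothelium, had Junb at 5170 and 4314 CPM and Jun at 3826 and 3228. Cluster 3, led by Car4 and Gpihbp1, genes known from capillaries, had Junb at 3316 and 2967 and Jun at 2839 and 2535. Among macrophage-like cells, cluster 15, with Folr2 and Cd163, had Fos at 2938 and 2984 CPM, and cluster 12, with Mmp12, had 1176 and 2043. Cluster 15 gave 9 of 55 macrophage-like cells in replicate 1 and 42 of 132 in replicate 2, and the class's Fos level was higher in replicate 2. What part of that difference this mix makes was not tested.

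Free RNA was gauged by Pth, which in the other classes stood at 0.809 to 1.25% of its parathyroid share; the limit of 1% Pth for these cells caps that value. The same fraction of the parathyroid level would make up at most 3.96% of any member's CPM in another tested class (Jun), except for Batf, where it reached 10.5%.

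To describe spread between cells, each cell was thinned to 5000 UMIs, which kept 646 and 2202 parathyroid cells and left out 16 and 34. Thinned Fos counts had a median of 9 and 7 UMIs in replicates 1 and 2, quartiles of 4 to 14 and 4 to 12, and 92.7% and 92.6% of cells with a UMI. Jun had medians of 6 and 7, quartiles of 3 to 10 and 3 to 12, and 92.4% and 92.9% of cells with a UMI. Jund had medians of 8 and 7, quartiles of 5 to 11 and 4 to 10, and the widest detection, 97.5% and 98.1%. Junb had medians of 4 and 3 and a UMI in 88.5% and 88.1% of cells. The low-level members were in few parathyroid cells: Fosl2 in 3.72% and 3.95%, Maff in 7.12% and 5.50%, Batf in 10.4% and 14.1% and Fosl1 in 2.17% and 2.59%. Fosl2 was found in 28.3% and 28.8% of fibroblast-like and 62.0% and 50.0% of endothelial-like cells thinned in the same way.

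The variance over the mean of thinned counts, which is 1 for counting error alone, was 5.31 and 4.55 for Fos, 4.86 and 4.92 for Jun, 2.45 and 2.51 for Junb and 2.78 and 2.20 for Jund. This ratio grows with the UMIs kept, so the coefficient of variation left after counting error was added after that was seen. It was 0.664 and 0.651 for Fos, 0.720 and 0.700 for Jun, 0.574 and 0.619 for Junb and 0.457 and 0.402 for Jund. By this measure Jund was the most even of the 4 genes in both libraries. Atf3 was the least even of the better detected members, at 1.45 and 1.65. It had a UMI in 47.1% and 41.5% of parathyroid cells, and the 10% of cells with most held 50.2% and 56.2% of its UMIs. In other classes the value for Fos was 0.536 and 0.485 (fibroblast-like), 0.679 and 0.883 (endothelial-like) and 1.38 and 0.886 (macrophage-like). It was 1.10 and 0.718 in dendritic-like and 1.28 and 1.48 in T-cell-like cells. Among the tested classes only fibroblast-like cells had lower values than parathyroid cells in both libraries. The other classes had higher values in both, by little for endothelial-like cells of replicate 1. These are descriptions with no test.

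**Figure D4:**
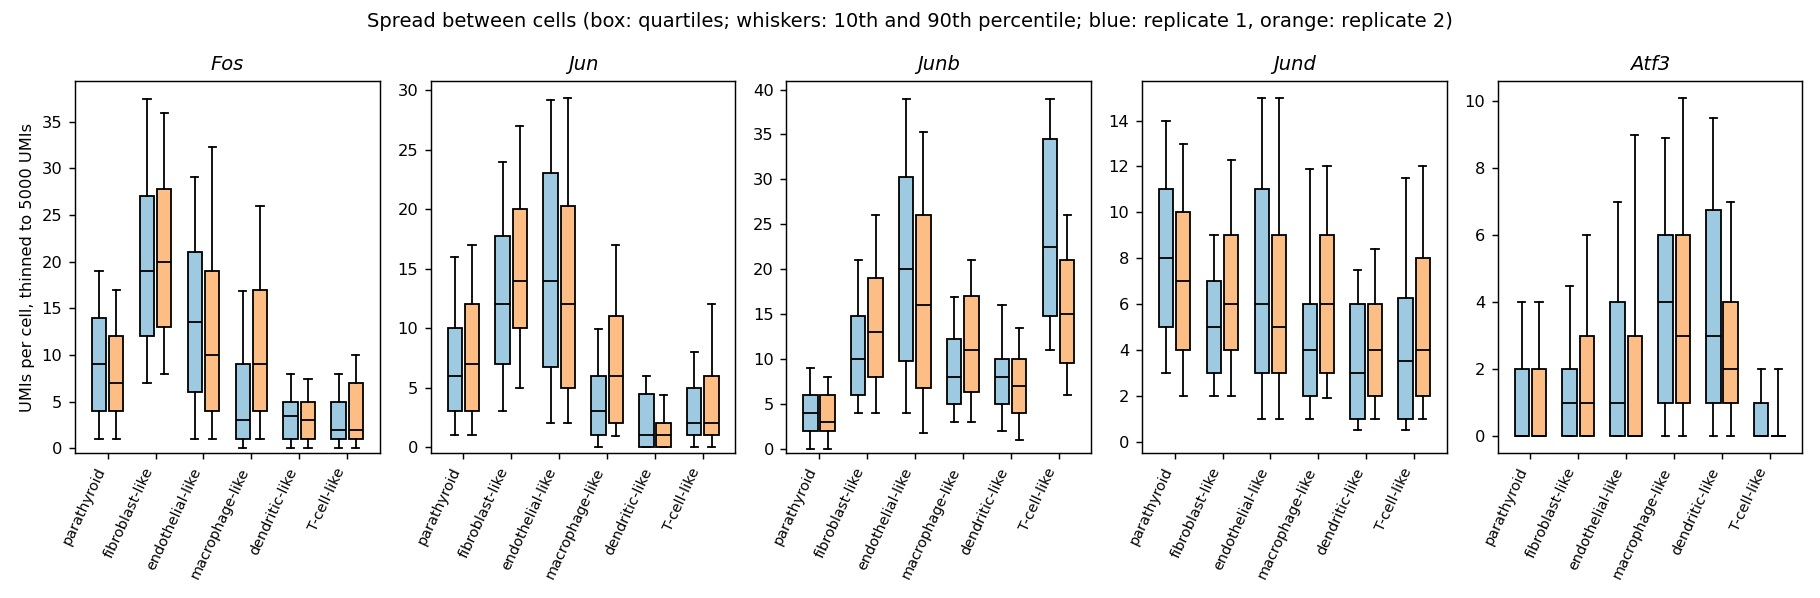
Boxes give the quartiles and median of UMIs per cell after thinning to 5000 UMIs, whiskers the 10th and 90th percentiles, for 5 genes and 6 classes (blue replicate 1, orange replicate 2). Parathyroid medians are 9 and 7 for Fos and 8 and 7 for Jund, with 4 and 3 for Junb below every other class.

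Most parathyroid cells held Fos and Jun together: both had a UMI in 89.3% and 88.8% of thinned cells, and neither in 4.18% and 3.32%. Fibroblast-like cells had both in 96.5% and 98.4% and endothelial-like cells in 90% and 91.1%, above parathyroid cells in both libraries. Macrophage-like cells had both in 76.9% and 87.7%, T-cell-like in 72.2% and 64.7% and dendritic-like in 54.3% and 55.3%, all below. The median parathyroid cell had UMIs of 5 of the 10 members in each library. Across depth, Fos in parathyroid cells was 1707, 2140 and 2002 CPM in shallow, middle and deep cells (3 equal parts) of replicate 1. In replicate 2 it was 1776, 1723 and 1579 CPM, so no common order was seen for Fos. Fosb rose with depth in both libraries, with 430, 503 and 579 CPM in replicate 1 and 280, 322 and 335 in replicate 2. Jun (1373, 1566 and 1640; 1585, 1592 and 1646 CPM) and Fosl2 also rose in both. The remaining members did not keep the same order in both libraries.

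Counts of different members went up and down together over cells. Among parathyroid cells Spearman's rho was 0.43 and 0.41 for Fos with Jun, 0.48 and 0.39 for Fos with Jund, and 0.48 and 0.39 for Jun with Jund. Fos with Junb gave 0.36 and 0.37. In endothelial-like cells rho was higher for Junb with Fos, at 0.58 and 0.61, and for Junb with Jun, at 0.61 and 0.63. Counting error lowers rho where counts are low. Mean thinned Junb was 4.40 and 3.93 UMIs in parathyroid cells and 21.4 and 17.4 in endothelial-like cells. How much of the difference in rho goes with these counts was not tested. In macrophage-like cells Fos with Jun gave 0.61 and 0.60. These cells share libraries and thinned depth, and the values are descriptions.

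**Figure D5:**
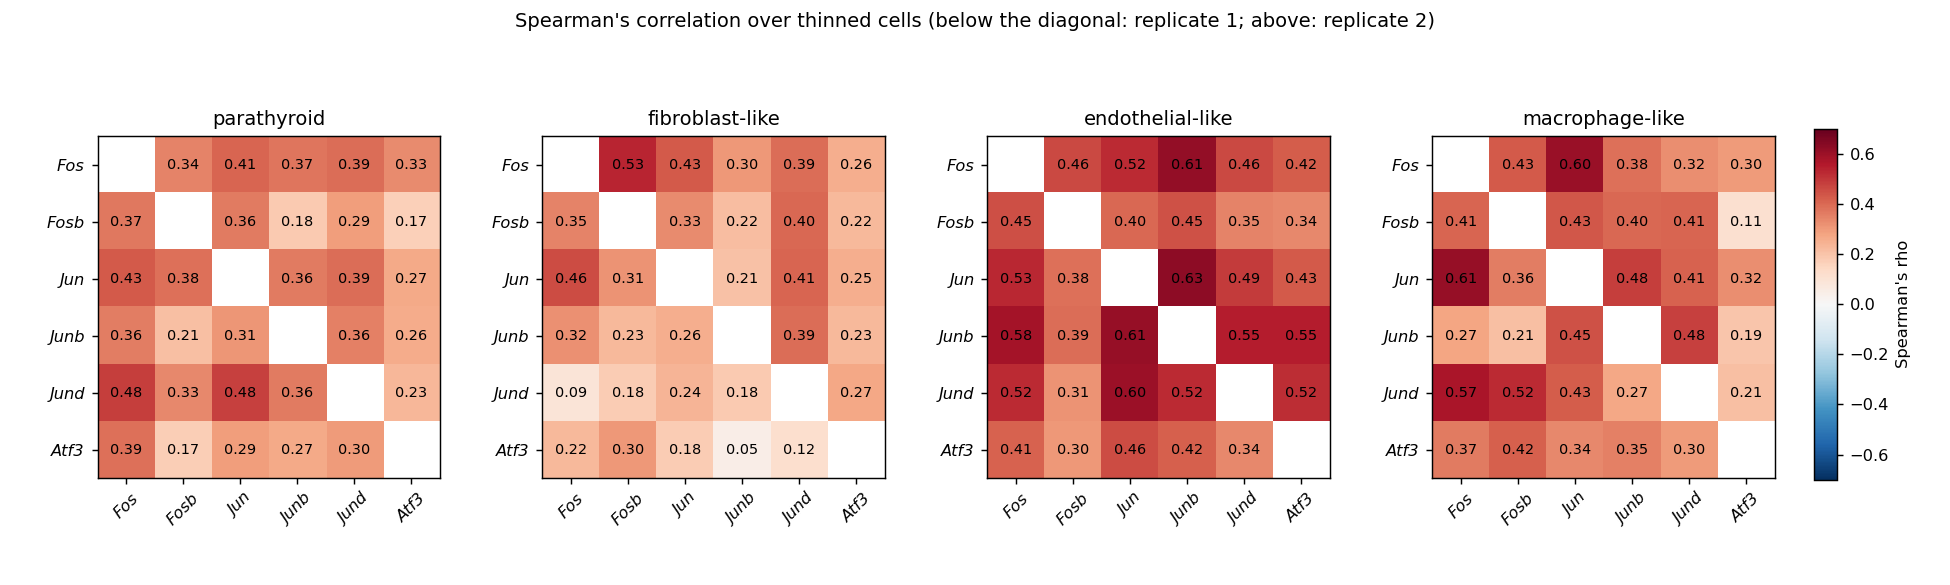
Squares give Spearman's rho between thinned counts of 2 genes over the cells of a class, replicate 1 below and replicate 2 above the diagonal. All values shown are above 0, and rho for Junb with Jun is 0.61 and 0.63 in endothelial-like against 0.31 and 0.36 in parathyroid cells. Thinned Junb counts are lower in parathyroid cells, which bears on rho.

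Among 2854 genes detected in at least 20% of thinned parathyroid cells of each library, those most like Fos over cells were Jund, Jun and Zfp36, whose product speeds decay of AU-rich mRNAs (mean rho 0.437, 0.417 and 0.380). Most like Jun were Jund, Fos and Fosb (0.435, 0.417 and 0.373). Most like Junb were Fos, Jund and Btg2, an antiproliferative early-response gene (0.366, 0.359 and 0.337). Over the 12 class sums, by Pearson's r of log2(CPM + 1), the genes most like Fos were Spats2l, Rhbdf1 and Gas6 (0.974, 0.968 and 0.966). For Jun they included Cped1 and Tmem159 (0.961 and 0.954), for Junb Bicral, Svil and Dnm2 (0.938, 0.937 and 0.936), for Jund Gfod2, Wsb2 and Ogfod1 (0.933, 0.930 and 0.923), and for Atf3 Asah1, Fkbp1b and Rab3il1 (0.962, 0.948 and 0.945). These are the best of 13305 genes over only 12 sums from 2 libraries, and no member appears among them.

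Genes around AP-1 were taken from 6 lists and compared with the mean of the other classes in the same fit. In this contrast 38.3% of all eligible genes were called higher and 19.8% lower, and each list's counts are to be read beside these shares. Of 28 tested immediate early genes outside the family, 1 was called higher and 23 lower in parathyroid cells, with a list median of -2.06 beside 0.19 for all genes. Ier5 was at 7.81 ± 1.34 CPM (SD, n = 2) against 256 ± 78.3 in the mean of other classes (-4.73, adjusted p = 2.3e-09). Nfkbia, the inhibitor of NF-kappaB, was at 148 ± 6.10 against 1313 ± 143 (-2.95, adjusted p = 2.5e-09), and the kinase gene Sik1 at 15.2 ± 3.54 against 173 ± 23.7 (-2.86, adjusted p = 2.1e-08). The 1 gene called higher was Gadd45g, a stress-response gene, at 461 ± 20.9 against 125 ± 28.05 CPM (2.47, adjusted p = 1.3e-07). Rhob was not called (-0.36, adjusted p = 0.231).

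Of 17 MAP kinase phosphatase and feedback genes, 2 were called higher and 10 lower, with a median of -0.96. The shares of eligible genes were 38.3% and 19.8%. Dusp1, whose product switches off MAP kinases, was at 82.3 ± 13.2 against 708 ± 30.5 CPM (-2.93, adjusted p = 1.2e-07). Dusp2 was at 0.257 ± 0.00738 against 96.8 ± 9.56 (-6.98, adjusted p = 4.8e-09), and the mRNA-decay gene Zfp36l2 at 11.2 ± 3.12 against 370 ± 53.5 (-4.67, adjusted p = 2.7e-07). Dusp6 and Spry2 were called higher on the mean of logs (0.83, adjusted p = 0.00403; 0.81, adjusted p = 0.0213) while their mean CPM was below that of the others (46.1 against 58.5; 13.5 against 23.2), and neither was called with DESeq2's test, which called 0 of the list higher.

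Of 26 upstream MAP kinase and SRF genes, 9 were called higher and 8 lower, with a median of 0.08, beside 38.3% and 19.8% of eligible genes. Mapk10, which encodes the kinase JNK3 that phosphorylates Jun, was at 115 ± 2.86 against 2.39 ± 1.52 CPM (5.81, adjusted p = 9.4e-10), and Mapk13, a p38 kinase gene, at 33.9 ± 1.35 against 2.63 ± 0.393 (5.86, adjusted p = 8.4e-08). Elk3 was at 15.4 ± 1.02 against 113 ± 3.14 (-2.28, adjusted p = 2.0e-07), and the SRF cofactor gene Mrtfa at 10.8 ± 0.823 against 91.7 ± 25.5 (-2.24, adjusted p = 2.2e-07). Of 24 other AP-1 and bZIP genes, 6 were higher and 11 lower, with a median of -0.72. Maf, which encodes a large Maf protein, was higher, at 398 ± 6.19 against 239 ± 45.6 CPM (2.21, adjusted p = 2.7e-07), although macrophage-like cells had more, 675 CPM. Bach1 was lower, at 12.9 ± 1.87 against 118 ± 26.4 (-2.76, adjusted p = 5.3e-07).

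Of 25 genes often cited as AP-1 targets, 6 were higher and 6 lower, with a median of -0.53, beside 38.3% and 19.8% of eligible genes. Spp1, for osteopontin, was at 495 ± 77.8 against 15.8 ± 6.12 CPM (5.70, adjusted p = 2.1e-09), and Cd44 at 3.60 ± 1.45 against 248 ± 19.4 (-4.81, adjusted p = 5.6e-08). With all other cells summed, 3 of these genes were called higher and 21 lower, beside 34.9% and 32.5% of eligible genes. Of 14 heat shock genes, which also respond to cell release, 5 were higher and 4 lower, with a median of 0.11. The shares of eligible genes were again 38.3% and 19.8%. Dnajb1 was at 24.0 ± 0.898 against 93.2 ± 11.0 CPM (-1.63, adjusted p = 3.2e-05) and Hspd1 at 153 ± 29.1 against 98.0 ± 21.0 (0.83, adjusted p = 0.000280). How much of any member's level arose during the enzyme steps was not tested, since every cell went through them.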

How the data were processed

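Counts of UMIs per gene and barcode were deposited by the authors as 2 filtered matrices made with Cell Ranger 7.0.0 on mm10, per the submitters' processing notes. Barcodes with at least 500 genes, under 15% mitochondrial and under 5% haemoglobin UMIs were kept, and doublets predicted by Scrublet in scanpy 1.11.5 (21 and 7) were removed. Cells with under 1% Pth were clustered (2000 variable genes, 30 components, 15 neighbours, Leiden resolution 1) without the members, the listed genes, Pth or the reporters, into 20 clusters.

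Clusters were named by the score of 23 marker lists. The score was set after the data were seen, and it was changed once for its result. The first score, a mean log2 ratio of CPM, named cluster 13 (84 cells) B-like, although Flt3 was in 85.7%, H2-Aa in 97.6% and Cd79a in 4.76% of its cells. Igkc, Iglc1 and Iglc2 were among its leading genes by fold, with Igkc in 4.76% of its cells. The score used, a mean log2 ratio of the share of cells with a UMI, named it dendritic-like (2.00 against 0.677 for B). The fit was run again with the first names and without that class, both added after seeing the data, as was the coefficient of variation left after counting error.

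Sums of UMIs per class and library, for classes of at least 20 cells in each library, were tested with edgeR 4.0.16 (TMM, filterByExpr, quasi-likelihood, 5 residual degrees of freedom, calls at an adjusted p of 0.05). DESeq2 1.42.0 was an alternative. The edgeR fit was also run on simulated counts in which most genes did not differ between classes. In the measured counts most eligible genes were called, so the simulation does not check the scaling for such data. Library was a block because its classes come from the same mice. Deviations of sums from 1 library had a median correlation of 0.100 over 15 pairs of classes (0.0578 to 0.284). SEs are the fold change over the square root of F. The members and gene lists were chosen with earlier results of these data known. All 10 members are named; of each list, up to 3 genes called higher and 3 lower of smallest p and the uncalled gene of highest level could be named, and examples were taken from these; some genes the rule names are not reported here. Poisson intervals cover counting error only. Promoter windows are from RefSeq, and annotated gene positions were used only to place the Jund window.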

Additional observations from a re-analysis of the deposited data

How the results depend on the processing

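With 2 libraries, pools of mice are the only replicates, and no call can be made without either. Junb, Fosl2, Maff and Atf3 were called lower under every setting tested; with all other cells summed Fosb (-0.91, adjusted p = 0.0179) and Fos joined them, making 6, with 2 higher. With no filter on low counts Fos was called higher, making 4. Members called higher fell from 3 to 1 with DESeq2's test, 1 with DESeq2's size factors in edgeR and 1 with total counts only. The replicate block changed few calls: without it 2 members were called higher and 4 lower, and 80 of the member and pair tests against 87. With the first cluster names 84 were called, 3 higher and 4 lower against the mean. Without the dendritic-like class, which leaves fewer pairs, 62 were, with Fos at -0.022 against the mean. Shares of all eligible genes called were counted only for the main fit, with no filter on low counts and with all other cells summed. Under the other settings the counts of calls have no such share beside them.

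Values that changed sign were small or mixed. With all other cells summed, the log2 fold change was -0.51 for Fos, -0.10 for Fosl1 and -0.22 for Jun. Leaving out replicate 1 or 2 gave -0.55 and 0.14 for Fosb and 1.12 and -0.24 for Fosl1 against the mean of classes. Against macrophage-like cells it gave -0.57 and 0.44 for Fos, -0.78 and 0.30 for Fosb and -0.044 and 0.70 for Jun. For Fosb it gave -0.091 and 0.15 against dendritic-like and -0.18 and 0.80 against T-cell-like cells. Fos against macrophage-like cells was 0.10 with no filter on low counts. Fosb against dendritic-like cells was -0.11 with DESeq2's test and -0.11 with its size factors, and -0.050 against T-cell-like cells with total counts. Fosl1 against dendritic-like cells was -0.46 at Leiden resolution 0.5. The cause was not tested.

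Of the lists, MAP kinase phosphatases called higher went from 2 to 0 with DESeq2's test and without the dendritic-like class, and to 1 with DESeq2's size factors, total counts, no replicate block or all other cells summed. DESeq2's test called 5 upstream MAP kinase genes higher and 13 AP-1 target genes lower, against 9 and 6 in the main fit. The median of all genes was -0.02 with DESeq2's test and 0.19 in the main fit. The share of all genes that DESeq2's test called was not counted, so these shifts may hold for genes at large. With all other cells summed, 3 heat shock genes were higher and 7 lower, and 3 AP-1 targets higher and 21 lower; of all eligible genes, 34.9% were higher and 32.5% lower there.

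The parathyroid family total was 6157 to 7069 CPM leaving out a library, and 9141 with the reduced total. Leaving out a library gave shares of 27.2 to 28.1% for Fos, 22.2 to 26.2% for Jun, 12.65 to 12.73% for Junb and 23.9 to 24.8% for Jund. The mean of per-cell shares gave 25.8% for Fos, 13.4% for Junb and 27.7% for Jund. Thinning sets detection and the variance over the mean by its construction. At 2000 and 10000 UMIs the share of parathyroid cells with a UMI was 86.1% and 95.6% for Fos, 82.1% and 95.7% for Jun, 74.5% and 94.9% for Junb and 91.1% and 99.4% for Jund. The variance over the mean was 2.54 and 9.01, 2.63 and 8.61, 1.47 and 3.71, and 1.59 and 4.14 in the same order. The coefficient of variation left after counting error was 0.649 and 0.660 for Fos and 0.527 and 0.567 for Junb. With Pth limits of 10% and 0.5%, Fos was in 93.1% of cells. Leaving out a library gave 92.6 to 92.7% for Fos, 92.4 to 92.9% for Jun, 88.1 to 88.5% for Junb and 97.5 to 98.1% for Jund.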
